A study of Mus musculus with 12 samples.

Results

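The nuclear genes of oxidative phosphorylation (OXPHOS) were followed in RNA from the liver macrophage preparation of mice. They were taken by symbol, as genes named Ndufa, Ndufb, Ndufc, Ndufs or Ndufv, Uqcr, Sdha to Sdhd, Cox4 to Cox8 followed by a, b or c, or Atp5. Of the 40840 genes listed, 99 matched, and leaving out 3 pseudogene symbols (Cox7c-ps1, Ndufab1-ps and Ndufs5-ps) gave 96 members. These were 41 subunits of complex I, 8 complex I assembly factors (Ndufaf1 to Ndufaf8), 4 genes of complex II, 8 of complex III, 18 of complex IV and 17 of complex V. Ndufa4 and Ndufa4l2 were counted in complex IV, where their proteins sit despite the names, and Cox7a2l, a factor that joins complexes III and IV, was counted there too.

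The libraries came from 4 groups of male mice, which entered the diets at 8 to 10 weeks of age and stayed on them for 12 weeks. WT mice of the C57BL/6 strain received a normal chow diet (WT-NCD) or a high fat diet (WT-HFD), and B6.129S4(D2)-Casp4tm1Yuan/J mice, which lack caspase-11 in every cell, received the same diets (Casp11-/- NCD and Casp11-/- HFD). Each group held 3 libraries, and the third WT-NCD library was left out because it differed in kind from the others: 39677 of its genes lay above the lowest deposited value, against 12940 to 18775 in the remaining 11 libraries. The WT-NCD group thus had 2 libraries and the other groups 3 each. Casp4, the targeted gene, did not separate the genotype labels (its values stand with the genotype comparison), so Casp11-/- means throughout a library labelled as such.

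In each respiratory complex, many nuclear subunits are assembled with a few subunits encoded in mitochondrial DNA, complex II being wholly nuclear. Complexes I and II pass electrons to ubiquinone, complex III passes them to cytochrome c, and complex IV passes them to oxygen. Complexes I, III and IV move protons across the inner membrane, and complex V uses their return to make ATP. Macrophages shift between glycolysis and mitochondrial respiration with their state of activation, and the NRF1, GABP (an ETS factor) and YY1 factors are known regulators of nuclear OXPHOS promoters. The 13 protein-coding genes of mitochondrial DNA were not analysed here.

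Promoters of 5 members are printed, whose windows hold different motifs and whose levels are described next. They are a core gene of complex III (Uqcrc1), an ATP synthase gene that stood high in 1 library (Atp5k) and a gene that was lower on HFD (Uqcrh). The others are the pair of complex IV isoforms used in most tissues (Cox8a) and in heart and brown fat (Cox8b). Sequences are from RefSeq on GRCm38.p6, 250 bases before to 50 bases after the annotated start. Capitals mark the NRF1 motif GCATGCGC, the ETS motif CCGGAAG, the YY1 motif AAGATGGCG, the TATA motif TATAAA and the motif CCAAT, searched on both strands. Each sequence is written 5′ to 3′ on the strand of its gene, and in these windows no motif overlaps another, apart from the NRF1 motif with its own reverse complement.
Uqcrc1 (chr9:108936398-108936697, plus strand): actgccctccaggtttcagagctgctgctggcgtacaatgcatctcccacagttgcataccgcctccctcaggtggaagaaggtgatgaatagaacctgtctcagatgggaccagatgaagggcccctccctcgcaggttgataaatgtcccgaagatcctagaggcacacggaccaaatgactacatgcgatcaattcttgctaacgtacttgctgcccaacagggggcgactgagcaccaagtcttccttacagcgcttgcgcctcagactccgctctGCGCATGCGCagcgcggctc
Atp5k (chr5:108434350-108434649, minus strand): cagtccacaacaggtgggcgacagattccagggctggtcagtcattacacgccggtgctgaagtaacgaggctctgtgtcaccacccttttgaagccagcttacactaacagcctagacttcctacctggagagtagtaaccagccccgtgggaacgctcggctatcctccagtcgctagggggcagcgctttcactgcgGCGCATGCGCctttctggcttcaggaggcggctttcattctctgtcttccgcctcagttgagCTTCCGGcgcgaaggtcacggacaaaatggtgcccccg
Uqcrh (chr4:116075021-116075320, minus strand): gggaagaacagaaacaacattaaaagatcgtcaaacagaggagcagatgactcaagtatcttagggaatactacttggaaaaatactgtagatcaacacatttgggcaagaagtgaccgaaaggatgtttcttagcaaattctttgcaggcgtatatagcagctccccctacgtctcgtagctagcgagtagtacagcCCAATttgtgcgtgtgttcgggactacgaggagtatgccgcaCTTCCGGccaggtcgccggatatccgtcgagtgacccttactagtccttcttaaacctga
Cox8a (chr19:7217567-7217866, minus strand): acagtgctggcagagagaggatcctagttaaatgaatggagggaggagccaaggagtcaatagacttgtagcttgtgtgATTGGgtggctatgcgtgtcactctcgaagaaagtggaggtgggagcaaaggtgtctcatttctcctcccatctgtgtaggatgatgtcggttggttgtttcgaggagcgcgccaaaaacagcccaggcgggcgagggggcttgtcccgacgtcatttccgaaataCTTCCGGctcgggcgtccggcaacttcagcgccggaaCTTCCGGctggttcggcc
Cox8b (chr7:140900397-140900696, minus strand): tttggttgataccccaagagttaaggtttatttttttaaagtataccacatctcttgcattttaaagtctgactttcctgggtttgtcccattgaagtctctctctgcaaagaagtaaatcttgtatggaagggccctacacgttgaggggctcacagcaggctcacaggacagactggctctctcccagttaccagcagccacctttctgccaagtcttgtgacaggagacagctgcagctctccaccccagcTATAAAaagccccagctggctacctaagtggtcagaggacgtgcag
Uqcrc1 carried the NRF1 motif, Atp5k the NRF1 and ETS motifs, Uqcrh and Cox8a the ETS motif together with CCAAT, and Cox8b the TATA motif alone. Some matches began after the annotated start: NRF1 in Uqcrc1 (bases 31 and 33), ETS in Atp5k (base 13) and TATA in Cox8b (base 5). An ETS match in Cox8a (base 33) did so too. The TATA motif of Cox8b thus did not lie before that start.

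A promoter window was matched for 78 of the 96 members and for 17391 protein-coding genes in all. The NRF1 motif was found in 12 members (15.4%), among them Uqcrc1, Uqcr11, Sdhb, Cox6a1, Atp5k and Atp5g2, against 3.96% of all protein-coding genes. The ETS motif was found in 19 members (24.4%, against 13.0% of all), the YY1 motif in 8 (10.3%, against 2.14%), the TATA motif in 8 (10.3%, against 14.8%) and CCAAT in 34 (43.6%, against 42.3%). These are counts of letters in a window and not of bound sites.

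Values are TPM, in which reads are divided by the length of the gene and every library is brought to a common total. Levels can thus be set side by side between genes in a rough way. How reads that match several gene copies were counted is not stated, so a low value may understate a transcript. The members were common transcripts: 84 of the 96 stood above the lowest deposited value of 1.007 TPM in all 11 libraries, and 68 had a mean over the 11 libraries above 10 TPM. Within a complex the listed TPM values were far from equal, although the proteins are assembled in fixed numbers. Across the 92 members with an exonic length, mean TPM was unrelated to that length in rank (Spearman's rho 0.0887, a description over genes that share the same libraries).

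Complex V had the widest range among subunits that every library showed. Atp5b, the catalytic beta subunit, had the highest mean of all members at 141.7 TPM. Its partner Atp5a1, the alpha subunit, had a mean of 96.2 TPM, and Atp5e and Atp5h followed at 70.1 and 68.8 TPM. The lowest genes of the complex were Atp5k at 5.46 TPM and Atp5j at 4.46 TPM, both of them structural subunits. In complex IV the ubiquitous isoforms led, with Cox8a at 99.5 TPM, Cox6b1 at 89.4 TPM, Cox7a2l at 74.3 TPM and Ndufa4 at 73.3 TPM, while Cox5a, a subunit beside the catalytic core, had a mean of 5.79 TPM. Complex III was led by Uqcrb at 74.2 TPM, and its lowest gene was Uqcr11 at 21.5 TPM. The 4 genes of complex II lay closest together, from Sdhc at 31.0 TPM to the iron-sulfur subunit Sdhb at 48.9 TPM. Complex I was lower, with a median of 15.4 TPM over its 41 members, and was led by Ndufa3 at 45.2 TPM. Its electron-carrying subunits Ndufv1, the NADH-binding subunit, and Ndufs1, the largest iron-sulfur subunit, had means of 13.1 and 13.0 TPM. The 8 assembly factors had a median of 3.25 TPM, and the highest of them was Ndufaf7 at 3.95 TPM.

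**Figure D1:**
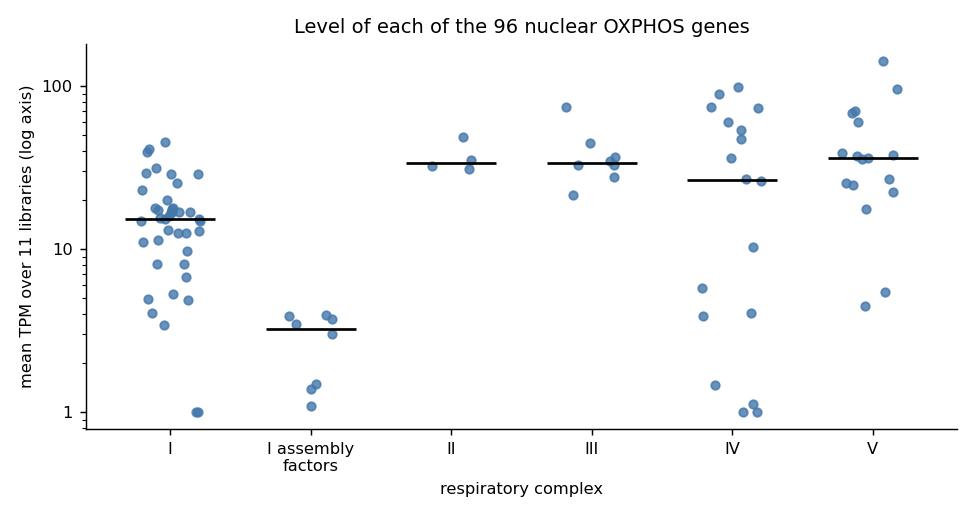
Mean TPM over 11 libraries (log axis) of each member, by respiratory complex, with a point for each gene and a line at the median of the complex. Atp5b stands highest at 141.7 TPM, and the genes at the bottom of complexes I and IV lie at the lowest deposited value of 1.007 TPM.

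Members listed at the lowest value in all 11 libraries were Cox7b2, Cox8c, Ndufa11b and Ndufs6b, the first pair being testis isoforms. Ndufa4l2, a hypoxia-induced relative of Ndufa4, stood above that value in 1 library only, the first Casp11-/- HFD library, at 2.22 TPM. These 5 genes were not tested, which left 91. Ndufb4, Ndufb4b and Ndufb4c are near-identical copies whose reads the authors' counting could have divided among them, as are Ndufa11 and Ndufa11b, and Ndufs6 and Ndufs6b, so their single values are uncertain.

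The main pattern was a lower level of OXPHOS transcripts on HFD in the deposited TPM, beside a lower share of protein-coding RNA in the same libraries. The summed TPM of the 96 members was 3019 and 3565 in the WT-NCD libraries and 2126, 1409 and 2429 in the WT-HFD libraries. In Casp11-/- mice the sum was 4258, 1762 and 3297 on NCD and 2475, 1771 and 1583 on HFD. The WT groups did not overlap, whereas the second Casp11-/- NCD library lay among those on HFD. As a share of all TPM, the members held 0.322% ± 0.0377 (SD, n = 2) in WT-NCD, 0.195% ± 0.0515 (n = 3) in WT-HFD, 0.305% ± 0.124 (n = 3) in Casp11-/- NCD and 0.190% ± 0.0466 (n = 3) in Casp11-/- HFD.

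Genes annotated as protein-coding held only part of each library, 33.9% and 37.8% in WT-NCD, 24.5%, 15.7% and 25.2% in WT-HFD, 36.7%, 22.3% and 42.4% in Casp11-/- NCD and 19.3%, 23.4% and 22.9% in Casp11-/- HFD. The second Casp11-/- NCD library was again the low library of its group. Taken as a share of protein-coding TPM, the members held 0.898% ± 0.0366 (SD, n = 2) in WT-NCD, 0.893% ± 0.0483 in WT-HFD, 0.892% ± 0.213 in Casp11-/- NCD and 0.894% ± 0.321 in Casp11-/- HFD (n = 3 each). The 4 group means lay closer together than the libraries of any group. Within the Casp11-/- groups the first library stood apart on both diets, at 1.14% on NCD and 1.26% on HFD, against 0.677% to 0.773% in the remaining 4.

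**Figure D2:**
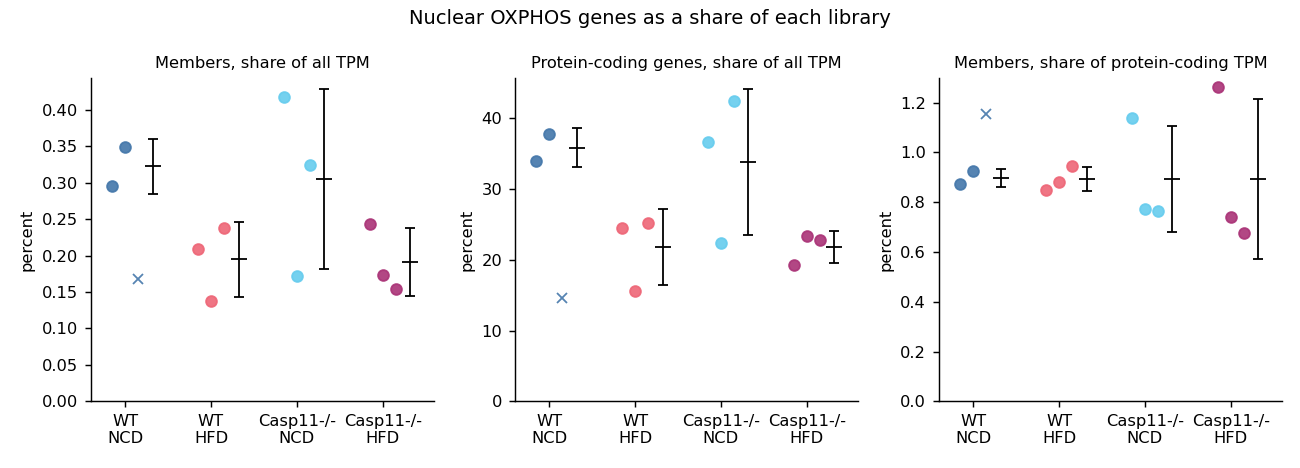
Share of the 96 members in all TPM (left), of protein-coding genes in all TPM (middle) and of the members in protein-coding TPM (right), in percent, with a point for each library, the mean ± SD of each group beside it and a cross for the WT-NCD library that was left out. The group means of the left and middle panels are lower on HFD, and the group means of the last panel lie between 0.892% and 0.898%.

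The members' TPM was divided among the complexes in similar parts in the 4 groups. Complex I held a mean of 26.6% to 27.3% of it in each group, complex II 5.72% to 6.13% and complex III 11.97% to 12.43%. Complex V held 31.2% ± 0.153 (SD, n = 2) in WT-NCD and 28.5% ± 0.904 (n = 3) in WT-HFD, and complex IV held 23.6% ± 0.0861 and 25.4% ± 0.897 in the same groups. In both cases the WT libraries of the 2 diets did not overlap, which was not tested. The small share of the assembly factors did not overlap in WT either, at 0.8487% and 0.8548% on NCD and 0.812% to 0.8485% on HFD. In Casp11-/- mice complex V held 30.1% ± 1.77 on NCD and 29.0% ± 1.013 on HFD. Complex IV held 23.9% ± 1.93 and 24.7% ± 2.62 there, and the libraries of the diets overlapped for both complexes.

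Diet was compared over both genotypes with limma on log2(TPM + 1), where the log2 scale with 1 added understates the change of low genes. Relative to NCD, 85 of the 91 members tested had a lower fitted mean on HFD, as had most of all genes. The median log2 fold change was -0.63 for the members, against -0.39 over all 17950 genes tested. That order turned with the third WT-NCD library included, to -0.45 for the members and -0.61 over all genes. Of the members, 8 fell at an adjusted p under 0.05 and 0 rose. Those 8 are 8.79% of the members tested, less than the 17.3% of all genes that fell by the same rule, so the count is no result about the members. Because the RNA is from a mixed preparation, fewer cells of a type and less RNA per cell cannot be told apart.

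The members that fell belonged to 4 of the 5 complexes and to the assembly factors. Like their count, this spread is no result about the members. Since the diet contrast picked them, groups that stand apart below are description and no separate result. In complex V they were Atp5e, the epsilon subunit, Atp5d, the delta subunit of the central stalk, and Atp5h, subunit d of the peripheral stalk. Atp5e stood at 107.0 and 122.0 TPM in WT-NCD, at 50.6, 26.0 and 58.0 TPM in WT-HFD, at 145.5, 53.9 and 78.0 TPM in Casp11-/- NCD and at 48.0, 49.9 and 32.3 TPM in Casp11-/- HFD. Its WT groups were apart, and the second Casp11-/- NCD library came close to the 3 on HFD. The log2 fold change of Atp5e was -1.19 with a standard error (SE) of 0.36 (adjusted p = 0.0301), the lowest among members.
Atp5d stood at 33.1 and 44.6 TPM in WT-NCD, at 19.4, 11.5 and 22.5 TPM in WT-HFD, at 54.2, 19.6 and 41.9 TPM in Casp11-/- NCD and at 16.9, 17.6 and 14.2 TPM in Casp11-/- HFD. The groups of each genotype did not overlap (log2 fold change -1.11, SE 0.35, adjusted p = 0.0353). Atp5h fell by 1.07 on the log2 scale (SE 0.37, adjusted p = 0.0462).

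Cox7a2l was the member of complex IV that fell. It stood at 111.7 and 117.2 TPM in WT-NCD, at 50.7, 30.3 and 65.0 TPM in WT-HFD, at 138.4, 48.2 and 120.9 TPM in Casp11-/- NCD and at 41.3, 45.2 and 48.4 TPM in Casp11-/- HFD. Again the second Casp11-/- NCD library was level with those on HFD, and the log2 fold change was -1.16 (SE 0.36, adjusted p = 0.0329).

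In complex III, Uqcrh, the hinge protein beside cytochrome c1, and Uqcrfs1, the Rieske iron-sulfur protein, fell. Uqcrh stood at 62.7 and 73.0 TPM in WT-NCD, at 23.5, 19.3 and 37.3 TPM in WT-HFD, at 88.4, 32.2 and 57.7 TPM in Casp11-/- NCD and at 48.7, 25.8 and 26.1 TPM in Casp11-/- HFD. The WT groups were apart and the Casp11-/- groups overlapped (log2 fold change -1.06, SE 0.36, adjusted p = 0.0441). Uqcrfs1 fell by 0.98 on the log2 scale (SE 0.34, adjusted p = 0.0454), and its groups did not overlap within either genotype. In complex I the accessory subunit Ndufb7 had a log2 fold change of -1.02 (SE 0.35, adjusted p = 0.0459), and the assembly factor Ndufaf1 had -0.98 (SE 0.34, adjusted p = 0.0480). Ndufs3, a core subunit, lay just outside the threshold at -0.98 (adjusted p = 0.0501).

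**Figure D3:**
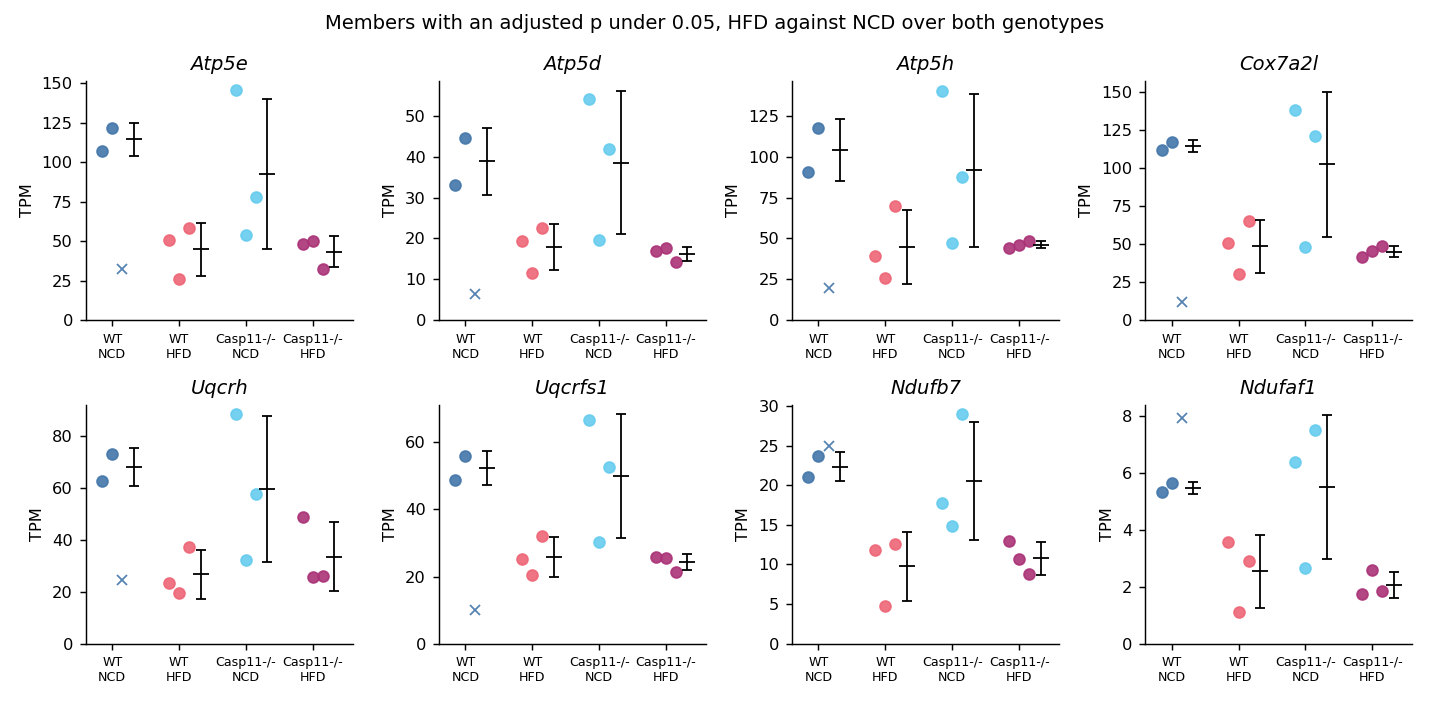
TPM of the 8 members that fell on HFD over both genotypes, with a point for each library, the mean ± SD of each group beside it and a cross for the WT-NCD library that was left out. Crosses aside, the WT-NCD points lie above all WT-HFD points in each panel, while the second Casp11-/- NCD library lies at or near the HFD level for most genes. The genes were picked by the diet contrast in these libraries, so the gap in WT is no separate result.

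The number of calls changed with single libraries and with the scale. Without the second Casp11-/- NCD library, 58 members (63.7%) fell, against 45.8% of all genes, and all 8 were among them. Leaving out any of 7 other libraries in turn left 0 members called (the first or the third Casp11-/- HFD library, the first Casp11-/- NCD library, the first or second WT-HFD library, and either WT-NCD library). With the second Casp11-/- HFD or the third Casp11-/- NCD library left out, Atp5e alone was called, and without the third WT-HFD library 10 members fell (20.8% of all genes), all 8 among them. Where no share of all genes stands beside a count, that count is no result about the members. With only genes above the lowest value in every library tested, 12 of 84 members fell, 14.3% against 35.5% of all genes. After each library was rescaled to the same protein-coding total, 0 members were called by limma, against 13.7% of the 12368 genes tested, 9 members had an unadjusted p under 0.05, against 34.1% of all genes, and the members' median log2 fold change was 0.00, with -0.05 over all genes. On that scale 46 members were higher and 45 lower.

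The remaining subunits named for their roles had no adjusted p under 0.05 on either scale. Atp5b stood at 180.9 and 209.9 TPM in WT-NCD, at 117.5, 74.0 and 136.5 TPM in WT-HFD, at 249.8, 95.9 and 172.4 TPM in Casp11-/- NCD and at 139.0, 96.3 and 86.7 TPM in Casp11-/- HFD. For Atp5b the log2 difference was -0.74 in deposited TPM (SE 0.37, adjusted p = 0.143) and -0.08 per protein-coding total (95% interval -0.61 to 0.45). Cox8a had -0.66 and 0.00 on the same scales, the second with an interval of -0.54 to 0.54. In complex II, Sdha, the flavoprotein that oxidises succinate, had -0.66 and -0.01 (interval -0.45 to 0.43), Sdhb had -0.66 and -0.01, and the membrane anchor Sdhc had -0.56 and 0.08. Ndufs1 had -0.66 and -0.04 (interval -0.43 to 0.34), Ndufv1 had -0.79 and -0.17, and Ndufa3 had -0.54 and 0.12. Uqcrc1, a core protein of complex III, had -0.94 and -0.30, Atp5a1 had -0.82 and -0.16, Cox5a had -0.32 and 0.25, and Cox6a1 had -0.33 and 0.31.

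**Figure D4:**
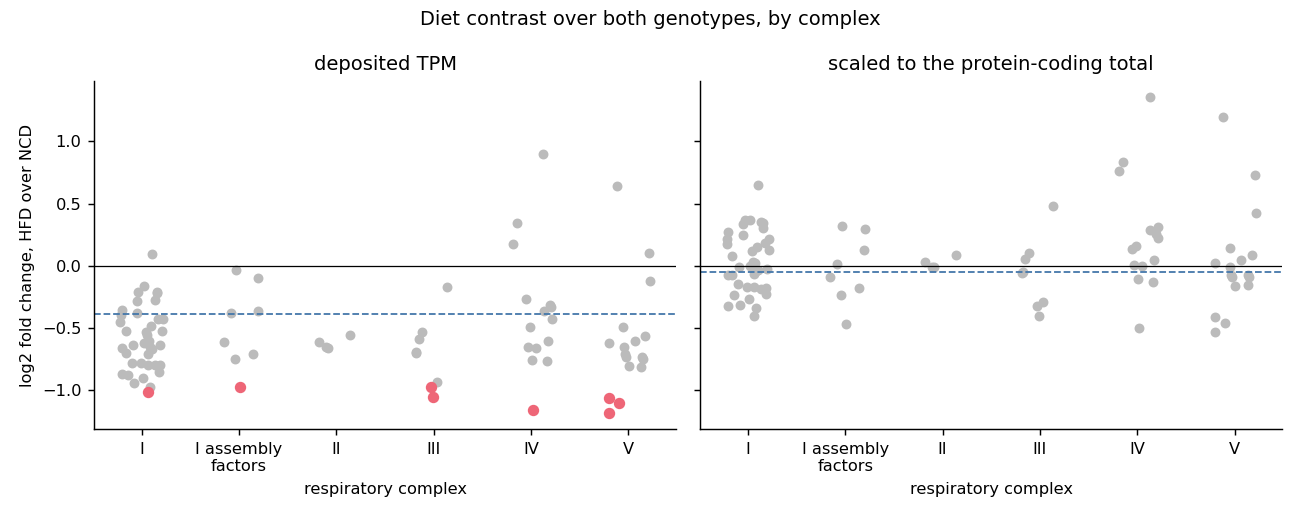
Log2 fold change of HFD over NCD for the 91 members tested, by complex, in deposited TPM (left) and after scaling to the protein-coding total (right), with a point for each gene, red for an adjusted p under 0.05 and a dashed line at the median of all genes tested. The points of the left panel centre on -0.63 with 8 in red, and those of the right panel centre on 0.00 with none.

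Some members did not share the fall. Uqcrb, a ubiquinone-binding subunit of complex III, stood at 65.5 and 78.9 TPM in WT-NCD, at 77.9, 57.8 and 86.5 TPM in WT-HFD, at 104.5, 47.1 and 109.6 TPM in Casp11-/- NCD and at 68.6, 59.9 and 59.7 TPM in Casp11-/- HFD. Its groups overlapped in both genotypes. The log2 fold change of Uqcrb was -0.18 in deposited TPM (adjusted p = 0.677) and 0.48 per protein-coding total (SE 0.19, adjusted p = 0.102), with an interval of 0.07 to 0.90. Atp5k, subunit e of ATP synthase, stood at 3.52 and 2.14 TPM in WT-NCD, at 3.55, 6.60 and 5.47 TPM in WT-HFD, at 4.42, 1.37 and 8.51 TPM in Casp11-/- NCD and at 16.6, 4.89 and 3.03 TPM in Casp11-/- HFD. The first Casp11-/- HFD library was the highest by far (log2 fold change 0.64, SE 0.43, adjusted p = 0.254). Ndufa5, an accessory subunit of complex I, was likewise highest there, at 12.3 TPM against 3.31 to 8.13 TPM in the remaining 10 libraries (log2 fold change 0.10, adjusted p = 0.841).

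Isoforms that belong to heart, skeletal muscle and brown fat varied widely between libraries. Cox8b stood at 1.14 and 1.60 TPM in WT-NCD, at 4.92, 2.75 and 6.85 TPM in WT-HFD, at 1.67, 1.55 and 2.50 TPM in Casp11-/- NCD and at 17.9, 1.007 and 1.007 TPM in Casp11-/- HFD. The 3 WT-HFD libraries lay above both WT-NCD libraries, and within Casp11-/- HFD 1 library was the highest of all and the other two were at the lowest deposited value. Over both genotypes the log2 fold change was 0.90 (SE 0.44, adjusted p = 0.138), and in WT it was 1.24 (SE 0.65, adjusted p = 0.364). Cox7a1 was at 1.16 and 1.26 TPM in WT-NCD, at 3.88, 2.66 and 3.40 TPM in WT-HFD, at 10.1, 1.22 and 4.23 TPM in Casp11-/- NCD and at 14.1, 1.25 and 1.19 TPM in Casp11-/- HFD. The 3 WT-HFD libraries again lay above both WT-NCD libraries for Cox7a1, and the first library was high in both Casp11-/- groups. The fold change of Cox7a1 was 0.35 (log2, SE 0.45, adjusted p = 0.529) and turned to -0.12 without the first Casp11-/- HFD library.

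Transcripts of cardiac muscle were highest in the library with the highest Cox8b and Cox7a1. The summed TPM of 10 cardiac genes, chosen after the members' values were seen (Myh6, Actc1, Tnnt2, Tnni3, Tnnc1, Mb, Myl7, Myl2, Ryr2 and Nppa), ranged from 26.8 to 29.5 in WT-NCD, from 71.0 to 111.2 in WT-HFD, from 38.7 to 67.1 in Casp11-/- NCD and from 22.4 to 422.9 in Casp11-/- HFD. The highest sum was in the first Casp11-/- HFD library, where Actc1 stood at 97.2 TPM and Myh6 at 46.7 TPM, and the lowest was in the third. Cox7a1 was also high in the first Casp11-/- NCD library, where the cardiac sum was 47.8 TPM, and within WT-HFD the second library had the highest cardiac sum and the lowest Cox8b and Cox7a1. Of the 9 cardiac genes that could be tested, limma called 0 for diet over both genotypes, 4 of them having an unadjusted p under 0.05. Per protein-coding total limma again called 0, while all 9 were higher on HFD with an unadjusted p under 0.05, against 34.1% of all genes. As the list was chosen with these values seen, that count is description and no separate result. By genotype on that scale, 8 of the 9 had an unadjusted p under 0.05 in WT and 0 had in Casp11-/- mice. The left-out WT-NCD library had a cardiac sum of 101.9 TPM, within the range of WT-HFD. Of 5 genes known from brown fat, likewise chosen after the values were seen (Ucp1, Cidea, Elovl3, Dio2 and Adipoq), the sum was highest in the first WT-HFD library at 50.8 TPM, of which Elovl3 gave 46.8 TPM, with Ucp1, Cidea, Dio2 and Adipoq at the lowest deposited value. In the first Casp11-/- HFD library the sum was 37.7 TPM, with Elovl3 at 19.6 TPM, Adipoq at 8.15 TPM, Ucp1 at 5.39 TPM and Cidea at 3.55 TPM. The remaining libraries had sums of 5.03 to 21.0 TPM. Limma called 0 of the 2 brown fat genes tested, and 0 had an unadjusted p under 0.05 (0 and 1 per protein-coding total). The part of these cells in the result was not tested.

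Cox6a2 had another distribution. It stood at 4.77 and 7.13 TPM in WT-NCD, at 12.1, 10.3 and 16.9 TPM in WT-HFD, at 29.7, 2.75 and 6.49 TPM in Casp11-/- NCD and at 18.2, 4.62 and 1.007 TPM in Casp11-/- HFD. It was highest in the first Casp11-/- NCD library, where it made up 48.4% of the TPM of Cox6a1 and Cox6a2, against 4.90% in the third Casp11-/- HFD library. The log2 fold change on HFD was 0.17 (SE 0.52, adjusted p = 0.784), and it turned negative without the first Casp11-/- HFD or the second Casp11-/- NCD library (-0.24 and -0.16). A list of 6 genes of plasmacytoid dendritic cells, also chosen after the values were seen (Siglech, Ccr9, Klk1, Pacsin1, Tcf4 and Runx2), summed to 38.7 to 54.8 TPM in WT-NCD, 64.5 to 146.8 in WT-HFD, 17.5 to 234.4 in Casp11-/- NCD and 17.0 to 51.2 in Casp11-/- HFD. Its highest sum was in the same library as the highest Cox6a2, with Siglech at 79.9 TPM, and its lowest was in the third Casp11-/- HFD library, where Cox6a2 was at the lowest deposited value. In between, the first Casp11-/- HFD library had the second highest Cox6a2 and a sum of 51.2 TPM, below the 54.8 TPM of the second WT-NCD library. Limma called 0 of the 6 genes for diet over both genotypes, and 0 had an unadjusted p under 0.05. Per protein-coding total it called 1 of the 6, higher on HFD, where 7.45% of all genes rose. Whether these cells carried the transcript was not tested. Cox6b2, the testis isoform of Cox6b1, reached at most 2.73 TPM.

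**Figure D5:**
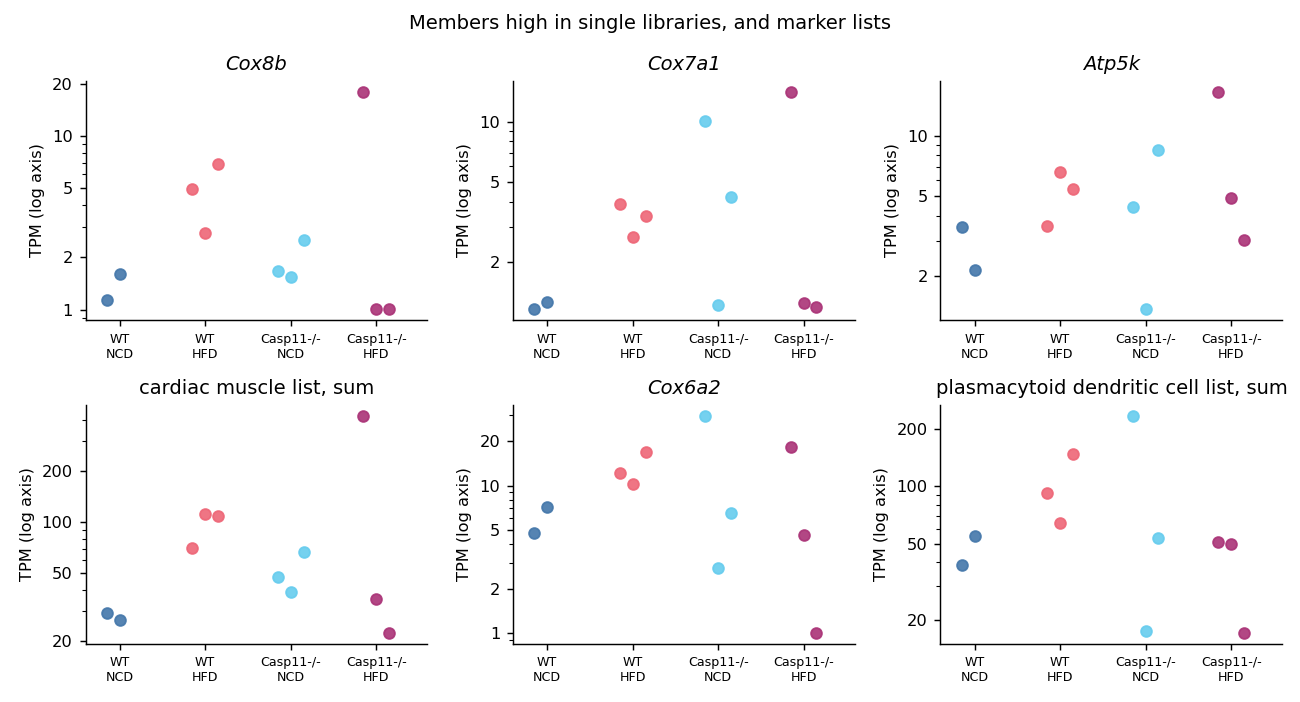
TPM (log axes) of Cox8b, Cox7a1, Atp5k and Cox6a2 and summed TPM of the cardiac muscle and plasmacytoid dendritic cell lists, with a point for each of the 11 libraries. The first Casp11-/- HFD library stands highest for Cox8b, Cox7a1, Atp5k and the cardiac list (422.9 TPM), and the first Casp11-/- NCD library for Cox6a2 and the dendritic cell list (234.4 TPM).

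Within WT mice, 82 of the 91 members had a lower fitted mean on HFD, as had most of all genes. The members' fold changes had a median of -0.67 on the log2 scale, with -0.27 over all genes (-0.37 and -0.51 with the third WT-NCD library included). None passed the threshold in limma (0 of 91), where 2.18% of all genes did. At an unadjusted p under 0.05 there were 10 of the 91 members and 15.2% of all genes. The largest differences were -1.41 for Atp5e (SE 0.54, adjusted p = 0.229) and 1.24 for Cox8b. When the spread was taken from the 2 WT groups alone, 5 members were called, against 16.7% of all genes: Atp5e, Uqcrh and Ndufs8 lower, and Cox8b and Cox7a1 higher.

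Within Casp11-/- mice, 87 of the 91 members had a lower fitted mean on HFD, as had most of all genes, with a median of -0.59 against -0.51 over all genes. In limma 0 were called, where 1.1% of all genes were, and 4 members had an unadjusted p under 0.05, where 27% of all genes had. Atp5d had the lowest fold change, -1.09 (SE 0.47, adjusted p = 0.157), and Atp5k the highest, 0.59 (SE 0.57, adjusted p = 0.493). Without the second Casp11-/- NCD library, 38 members fell, where 46.1% of all genes did. Per protein-coding total the members' median was 0.05 in WT and -0.05 in Casp11-/- mice, with 0.08 and -0.19 over all genes.

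The genotypes were compared within each diet to ask whether loss of caspase-11 altered these genes. Casp4, the gene for caspase-11 (chromosome 9, 5308828 to 5336783, GRCm38), stood at 12.1 and 15.6 TPM in WT-NCD, at 7.09, 5.60 and 11.4 TPM in WT-HFD, at 4.93, 2.56 and 15.2 TPM in the libraries labelled Casp11-/- NCD and at 2.78, 8.68 and 4.73 TPM in those labelled Casp11-/- HFD. Its level did not separate the genotype labels, and a gene total can hold reads from outside the deleted part. On NCD the members' median log2 fold change, labelled Casp11-/- over WT, was -0.14 against 0.08 over all genes, and 0 members were called by limma, where 0.0557% of all genes were. At an unadjusted p under 0.05 there were 0 members and 3.24% of all genes. The range ran from -0.57 for Ndufa1 (SE 0.58) to 1.19 for Cox7a1 (95% interval -0.19 to 2.58). On HFD the median was 0.01 against -0.04, and limma called 0 members and 0% of all genes (0 members and 0.752% of all genes at an unadjusted p under 0.05). Cox6a2 had the lowest value, -1.20 (interval -2.62 to 0.22), and Ndufs8 the highest, 0.39 (interval -0.59 to 1.37). The SE of these 4 genes, 0.48 to 0.69, shows how little a comparison of 2 or 3 libraries could resolve for a single member.

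The interaction of diet and genotype, which asks whether the diet difference itself differed between genotypes, gave 0 members by limma and 0.00557% of all genes (0 members and 2.6% of all genes at an unadjusted p under 0.05). Cox6a2 had the lowest value, -1.68 (SE 1.03), and Ndufs8 the highest, 0.75 (SE 0.71), both with an adjusted p of 0.9998.

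Related genes outside the members were examined over the same diet contrast as lists, chosen with earlier results of these data known. Of 37 further OXPHOS assembly factors tested, 2 fell and 0 rose, a smaller share than the 17.3% of all genes that fell, and the median over the list was -0.66 on the log2 scale, with -0.39 over all genes. The 2 were Sdhaf1, an assembly factor of complex II, at -1.41 (SE 0.36, adjusted p = 0.0154) and Surf1, an assembly factor of complex IV, at -1.16 (SE 0.35, adjusted p = 0.0300). After scaling to the protein-coding total, Sdhaf1 kept an adjusted p of 0.0474 and Surf1 had 0.0682. Of 7 tested subunits and carriers that the symbol rule misses, 0 were called by limma and 1 had an unadjusted p under 0.05, among them Cox4i1, the main isoform of complex IV subunit 4, at -0.54 (adjusted p = 0.238), and Cyc1, cytochrome c1, at -0.83 (adjusted p = 0.0806).

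Of 15 tested regulators of mitochondrial biogenesis, 5 fell and 0 rose in deposited TPM, where 17.3% of all genes fell, with a median of -0.81 against -0.39 over all genes. They were Polrmt, the mitochondrial RNA polymerase, at -1.37 (adjusted p = 0.0170), Twnk, the mitochondrial helicase, at -0.996 (adjusted p = 0.0201), Ppargc1b, a coactivator, at -0.74 (adjusted p = 0.0315), Esrra, a nuclear receptor of OXPHOS promoters, at -1.09 (adjusted p = 0.0343), and Polg, the mitochondrial DNA polymerase, at -1.02 (adjusted p = 0.0468). Per protein-coding total, Polrmt (-0.85, adjusted p = 0.0156) and Twnk (-0.54, adjusted p = 0.0409) were the 2 of the 15 that fell, where 6.27% of all genes did, and the median of the list was -0.31, with -0.05 over all genes. The counts of the regulators were not followed with single libraries left out. The glycolysis list had 2 of 17 genes lower (Gpi1 and Eno1), a smaller share than among all genes, and a median of -0.62. Per protein-coding total its median was 0.01, with limma calling 0 of the 17 and 1 having an unadjusted p under 0.05. Of 18 genes of the tricarboxylic acid cycle, 3 fell and 0 rose in deposited TPM, where 17.3% of all genes fell. Per protein-coding total 1 of them rose and 0 fell, where 7.45% of all genes rose and 6.27% fell.

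Cell type markers changed with diet in the same libraries. In deposited TPM, 7 of 10 macrophage and Kupffer cell genes rose on HFD (summed TPM 82.8 to 604 over the NCD groups and 339.7 to 982.8 over the HFD groups), while 6 of 6 B cell genes (1088 to 5042 on NCD, 355.9 to 894.9 on HFD), 6 of 8 T and NK cell genes and 5 of 5 erythroid genes fell. Of 6 sinusoidal endothelial genes 4 rose, of 6 neutrophil genes 1 fell, and of 6 stellate cell genes 1 rose and 1 fell. Among all genes 1.07% rose and 17.3% fell. Per protein-coding total, where 7.45% of all genes rose and 6.27% fell, 8 of the 10 macrophage, 5 of the 6 endothelial, 3 of the 6 stellate and 1 of the 10 hepatocyte genes rose, while 5 of 5 tested B cell, 4 of 5 erythroid, 2 of 8 T and NK cell and 1 of 6 neutrophil genes fell. The 10 hepatocyte genes, of which limma called 0 in deposited TPM (1 had an unadjusted p under 0.05), summed to 6703 to 24817 TPM across the 11 libraries, more than the macrophage list in every group, although the preparation included lysis of red cells and a Percoll step to part the macrophages from hepatocytes. Their part in the levels of the members was not tested.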

How the data were processed

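Total RNA of the liver macrophage preparation was measured in 12 libraries by the authors, who used STAR on the mm10 build (GRCm38.p6) and derived TPM values in the Qlucore Omics Explorer program. The deposited values carry the unit score here, since they are TPM with low values raised to 1.007 and a total per library of 1000353 to 1022495. Read counts are not given, so depth and counting error are unknown. Genes with more than the lowest value in at least 3 of the 11 libraries used entered limma (version 3.58.1, R 4.3.3), which was run on log2(TPM + 1) using a shared spread of the 4 groups and a trend on the mean. Tests were two-sided, with Benjamini-Hochberg adjustment over all genes and a threshold of 0.05. The p-values set each difference between groups against the spread between libraries within groups, pooled over all 4 groups. Protein-coding status came from RefSeq (21702 genes). Coordinates came from GENCODE vM21. The members and lists were chosen with earlier results of these data known. Named members were those called (at most 8 per direction), the highest level and extreme fold changes of each complex, main catalytic subunits and tissue-restricted isoforms. Figures used Python 3.11.15 with matplotlib 3.10.9.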

Additional observations from a re-analysis of the deposited data

Results flagged for a closer look

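The third WT-NCD library, which no comparison used, showed members that were at the lowest deposited value in all 11 other libraries. It listed Ndufa11b at 50.4 TPM, Ndufs6b at 28.1 TPM, Cox8c at 27.95 TPM and Cox7b2 at 24.5 TPM. All 96 members lay above the lowest deposited value there, from 2.64 to 50.4 TPM, with Atp5b at 7.08 TPM against 74.0 TPM or more elsewhere. The library held 39677 genes above the lowest value, so its members' values differ in kind from those of the remaining libraries.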

How the results depend on the processing

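Diet over both genotypes, with 8 members called, gave 0 with all 12 libraries, with a filter in 1 library, with the top 1% of genes left out and with the protein-coding total, there also with a filter in every library, which in deposited TPM gave 12. It gave 20 with a replicate block (35.6% of all genes lower). The 15 same-number pairs of libraries from different groups had correlations of -0.327 to 0.467, and the other pairs had -0.57 to 0.466. With 2 or 3 libraries in a group, these ranges cannot settle whether same-numbered libraries belong together. Chosen after seeing the data, the protein-coding total gave 1 member without the first Casp11-/- HFD library (Cox8b, higher) and 4 without the second Casp11-/- NCD library (Atp5d, Cox7a2l and Ndufaf1 lower, Ndufaf6 higher). Leaving out each library in turn gave 0 to 58 members over both genotypes and 0 to 38 in Casp11-/- mice. Diet in WT gave 5 members with the spread of the 2 groups and 1 with the protein-coding total without the first Casp11-/- HFD library (Cox8b). The genotype comparisons and the interaction gave 0 members under each alternative run. The block changed no other count of members. For runs given without a share of all genes, these counts are no result about the members. The members' share became 0.322% and 0.195% of all TPM in WT mice on NCD and HFD, and 0.305% and 0.190% in Casp11-/- mice, and 0.984% of protein-coding TPM in WT-NCD with all 12 libraries. The causes were not tested.

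Uncalled log2 fold changes over both genotypes turned positive with the protein-coding total for Cox5a (0.25), Cox6a1 (0.31), Cox8a (0.0014), Ndufa3 (0.12), Sdhc (0.084) and Uqcrb (0.48), with the same values under the filter in every library. Without the first Casp11-/- HFD library on that scale they were 0.045 for Cox5a, 0.083 for Cox6a1, 0.0011 for Ndufa3 and 0.41 for Uqcrb. Without the second Casp11-/- NCD library on that scale they were 0.23 for Cox5a, 0.31 for Cox6a1, 0.11 for Ndufa3, 0.079 for Sdhc, 0.42 for Uqcrb and 0.0070 for Sdhb. With the top 1% left out they were 0.23 for Cox5a, 0.29 for Cox6a1, 0.092 for Ndufa3, 0.060 for Sdhc and 0.46 for Uqcrb. With all 12 libraries Atp5b (0.027) and Uqcrb (0.079) turned positive, and Cox6a2 (-0.10), Cox7a1 (-0.28) and Ndufa5 (-0.28) negative. Leaving out each library in turn gave -0.24 to 0.60 for Cox6a2, -0.12 to 0.63 for Cox7a1 and -0.15 to 0.24 for Ndufa5.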

Other observations

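Within complex III, Uqcrb and Uqcrh were unequal in a way that no scaling of a library can alter. This pair was chosen after its values were seen and was not tested. The ratio of Uqcrb to Uqcrh TPM was 1.04 and 1.08 in WT-NCD and 3.32, 2.99 and 2.32 in WT-HFD. In Casp11-/- mice it was 1.18, 1.46 and 1.90 on NCD and 1.41, 2.32 and 2.29 on HFD. The WT groups did not overlap, and the first Casp11-/- HFD library lay among the NCD libraries. The left-out WT-NCD library had a ratio of 0.996. For Uqcrb to Uqcrfs1, likewise not tested, that library had 2.40, against 1.34 and 1.41 in WT-NCD and 2.70 to 3.10 in WT-HFD. In Casp11-/- mice the ratio of Uqcrb to Uqcrfs1 was 1.55 to 2.08 on NCD and 2.34 to 2.78 on HFD.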
